A study of Homo sapiens with 12 samples.

Results

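The mitochondrial ribosomal protein genes are the nuclear genes with MRPS symbols for the small subunit and MRPL symbols for the large subunit of the ribosome inside mitochondria. They were taken as every gene whose probe set carried 1 gene symbol made of MRPL or MRPS, a number and at most 1 letter. This gave 73 genes out of 18418 genes with a probe set of 1 symbol, 25 with MRPS and 48 with MRPL symbols, on 21 chromosomes. They came from 77 probe sets, and the brightest over the 12 arrays stood for each gene. RNA was measured with Affymetrix Human Gene ST arrays in T47D-MTVL cells, a human breast carcinoma line that expresses the progesterone receptor and carries a single integrated copy of the MMTV promoter. The comparisons were meant to show whether CHD8, an ATP-dependent chromatin remodeler, is needed for gene regulation by progestin. Cells were transfected with an siRNA against CHD8 (siCHD8) or a control siRNA (siCt), kept without serum for 48 h and given the synthetic progestin R5020 at 10 nM or its ethanol vehicle (EtOH) for 6 h. This makes 4 conditions, siCHD8 R5020, siCHD8 EtOH, siCt R5020 and siCt EtOH, with 3 arrays each that the labels call biological replicates. All of them are transfected, serum-deprived cells of 1 line, so no untransfected or proliferating cells stand beside them.

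Mitochondrial ribosomes make a small set of hydrophobic proteins, encoded by mitochondrial DNA, that become core parts of the respiratory chain. Their RNAs come from mitochondrial DNA, whereas every protein of both subunits is encoded in the nucleus, made on cytosolic ribosomes and imported. Some of these proteins have counterparts in the bacterial ribosome, and the rest were added during the evolution of mitochondria. In the list used here, 43 of the 73 genes were marked as encoding a protein with a bacterial counterpart and 30 as not. This marking was not checked against protein sequences. By place in the ribosome, 23 belong to the small subunit and 50 to the large one, because MRPS18A and MRPS30 sit in the large subunit in spite of their symbols.

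Values are log2 intensities, and a difference of 1 is a doubling of intensity. Since probe sets differ in how well they bind, levels were compared between conditions and not between genes. The mean of a gene over the 12 arrays lay between 2.09 (MRPS18C) and 10.26 (MRPL45), and 63 of the 73 genes were at 5 or more. The rest lay among dim probe sets, where intensity says little about RNA. A gene was called when its limma p, adjusted by Benjamini-Hochberg over the 21214 probe sets with a gene symbol, was under 0.05. These p-values measure the spread between the labelled replicates. As the RNA came from whole cultures, fewer cells with a given RNA and less of it per cell cannot be told apart.

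Arrays of 1 condition correlated at 0.989 to 0.996 over the probe sets tested, and arrays of different conditions at 0.976 to 0.994. CHD8 itself was at 4.62 to 4.81 in siCHD8 R5020 against 5.24 to 5.52 in siCt R5020, and at 5.04 to 5.42 in siCHD8 EtOH against 5.70 to 5.91 in siCt EtOH. The siCHD8 arrays thus did not overlap the control with either treatment. This probe set lies near the limit of 5 for dim ones, so it cannot show how complete the depletion was. The paper checked depletion by Western blot and RT-qPCR. Of the marker lists, the 9 luminal markers had gene means of 6.95 to 11.07, the 6 fibroblast markers at most 5.48, the 4 basal and mesenchymal ones at most 5.02, the 4 blood ones at most 2.89 and the 4 endothelial ones at most 2.59. The array siCHD8 EtOH replicate 1 stood apart from its replicates, and not for the mitochondrial ribosomal protein genes alone. The mean of all probe sets at 5 or more was 6.84 on this array, against 6.73 and 6.70 on the others of its condition. Relative to that mean, the mitochondrial ribosomal protein genes stood 0.07 higher, against 0.02 and 0.01. This array also had the highest CHD8 value of its condition, 5.42 against 5.11 and 5.04. Whether these differences are linked was not tested. The values without this array are given beside the calls and counts that it moved most.

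Taken as 1 group, these genes differed little between conditions. Their mean log2 intensity was 6.83, 6.83 and 6.84 on the siCHD8 R5020 arrays (mean 6.83 ± 0.01, SD, n = 3). It was 6.91, 6.75 and 6.71 on the siCHD8 EtOH arrays (6.79 ± 0.11), 6.99, 6.99 and 6.95 on the siCt R5020 arrays (6.97 ± 0.02), and 6.85, 6.86 and 6.89 on the siCt EtOH arrays (6.87 ± 0.02). All siCHD8 R5020 arrays lay below all siCt R5020 arrays, whereas siCHD8 EtOH replicate 1 lay above every siCt EtOH array. Relative to the mean of all probe sets at 5 or more on the same array, the genes stood 0.04 ± 0.01 higher in siCHD8 R5020, 0.03 ± 0.03 in siCHD8 EtOH, 0.13 ± 0.03 in siCt R5020 and 0.08 ± 0.03 in siCt EtOH.

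**Figure D1:**
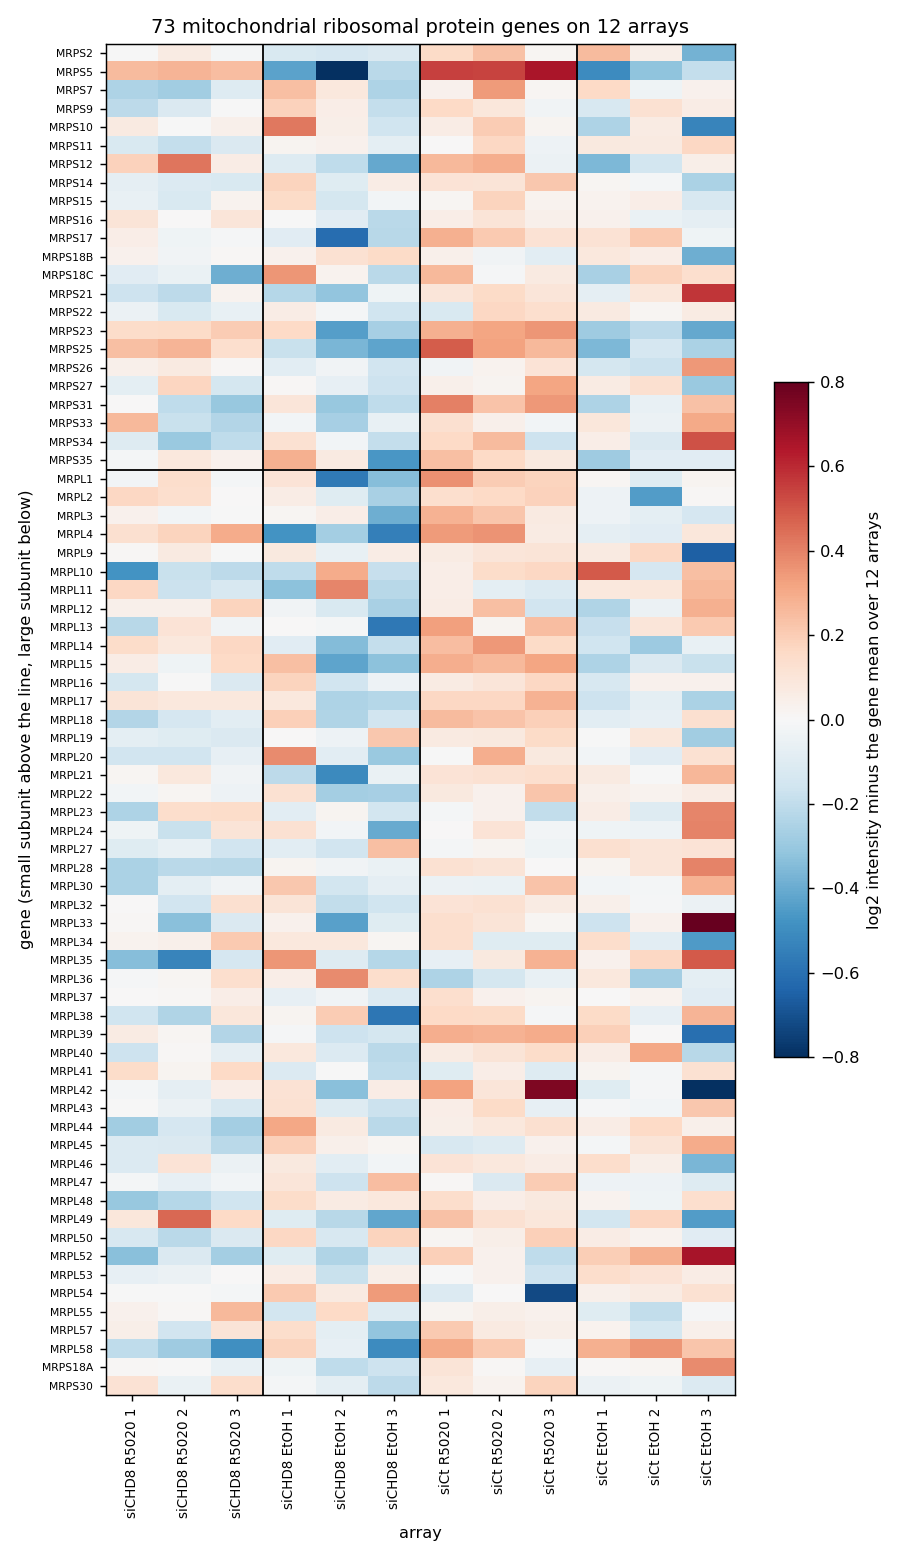
Each row is 1 of the 73 mitochondrial ribosomal protein genes, small subunit above the line, and each column 1 of the 12 arrays. Colour gives log2 intensity minus the gene's mean over the 12 arrays. MRPS5, MRPS23 and MRPS25 are red with R5020 in both siCHD8 and siCt cells, and MRPS23 also on siCHD8 EtOH replicate 1. Most other genes were not called with R5020 in either cell state.

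**Figure D2:**
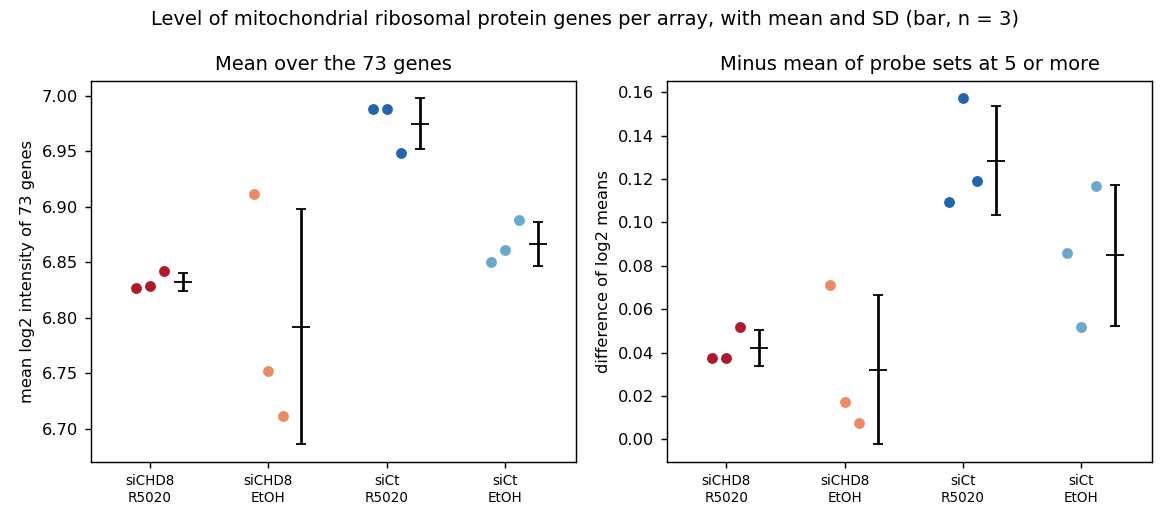
Mean log2 intensity of the 73 genes on each array (left) and the same minus the mean of probe sets at 5 or more (right), with points for arrays and bars for mean and SD (n = 3). The siCHD8 R5020 arrays lie together below the siCt R5020 arrays, and siCHD8 EtOH replicate 1, at 6.91, lies away from the other 2 arrays of its condition.

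A few of the mitochondrial ribosomal protein genes rose with R5020, led by MRPS5, MRPS25 and MRPS23 of the small subunit and MRPL4 and MRPL14 of the large one, while most did not pass the test. In siCHD8 cells 4 of the 73 genes were higher with R5020 than with EtOH (MRPS5, MRPL4, MRPS25 and MRPS12), against 6.04% of all probe sets tested, and 1 was lower (MRPL48), against 5.43%. In siCt cells 7 of the 73 were higher (MRPS5, MRPL42, MRPS23, MRPS25, MRPL15, MRPL14 and MRPL17), against 8.10% of all probe sets, and 0 were lower, against 6.00%; 2 members had an unadjusted p under 0.05 in that direction, against 14.6% of all. As shares of the members, 5.48% were higher in siCHD8 and 9.59% in siCt, so the number that rose was close to what the whole table gave. Of the 63 members at 5 or more, 4.76% were higher in siCHD8 and 11.1% in siCt, against 11.1% and 14.6% of all probe sets that bright. Without siCHD8 EtOH replicate 1, 8 of the 73 were higher in siCHD8 in place of 4, with MRPS23, MRPL1, MRPL15 and MRPL14 added, and 0 were lower. Without siCt R5020 replicate 1, 2 or 3 the count in siCt was 3, 4 and 4 in place of 7. The share of all probe sets called was not counted for the fits with an array left out, so these counts lack that comparison. The genes called higher in both were MRPS5 and MRPS25, or 2.74% of members against 4.70% of all probe sets.

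The promoters of the 4 genes with the largest called change averaged over siCHD8 and siCt cells are shown, since these genes carry the hormone result. Each line holds the 250 bases before the RefSeq start of the gene, on the strand of the gene, in assembly GRCh38.p14. MRPS5 lies at chr2:95121809-95122058 on the minus strand, MRPS25 at chr3:15065316-15065565 on the minus strand, MRPS23 at chr17:57850045-57850294 on the minus strand and MRPL4 at chr19:10251701-10251950 on the plus strand. Capitals mark matches to the motifs searched on both strands, here GGGCGG of SP1 (reverse complement CCGCCC) and CCGGAAG of GABPA and other ETS factors (reverse complement CTTCCGG).
MRPS5: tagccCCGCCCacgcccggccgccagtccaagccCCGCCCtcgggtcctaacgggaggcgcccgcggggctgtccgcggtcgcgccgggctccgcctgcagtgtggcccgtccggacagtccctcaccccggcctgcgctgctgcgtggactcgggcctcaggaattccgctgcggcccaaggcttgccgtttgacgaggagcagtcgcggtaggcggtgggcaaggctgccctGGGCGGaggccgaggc
MRPS25: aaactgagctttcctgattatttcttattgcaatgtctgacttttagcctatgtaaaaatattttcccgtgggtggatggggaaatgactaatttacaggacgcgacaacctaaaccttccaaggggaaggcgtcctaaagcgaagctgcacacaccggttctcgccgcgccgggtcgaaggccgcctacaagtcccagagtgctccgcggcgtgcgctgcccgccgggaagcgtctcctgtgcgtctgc
MRPS23: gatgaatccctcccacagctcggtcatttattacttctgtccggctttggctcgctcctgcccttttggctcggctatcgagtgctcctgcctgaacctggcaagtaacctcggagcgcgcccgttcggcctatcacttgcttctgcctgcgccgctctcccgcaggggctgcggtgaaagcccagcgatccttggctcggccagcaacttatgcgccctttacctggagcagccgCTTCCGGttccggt
MRPL4: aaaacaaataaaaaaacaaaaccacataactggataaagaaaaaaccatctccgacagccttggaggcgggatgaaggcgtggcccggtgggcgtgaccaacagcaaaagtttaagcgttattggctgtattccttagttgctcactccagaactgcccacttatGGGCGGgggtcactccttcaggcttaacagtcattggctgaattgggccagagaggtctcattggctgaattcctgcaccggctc
The MRPS5 window held 3 SP1 matches at 75.6% GC, the MRPL4 window 1 at 49.2% GC and the MRPS23 window 1 ETS match at 61.6% GC. The MRPS25 window, at 54.4% GC, held none of the motifs searched. None of the 4 held TGTTCT (reverse complement AGAACA), 1 form of the progesterone receptor half-site. Only this form was searched, whereas the paper gives the receptor consensus as TGTYCY, where Y is C or T. The motif CTGTNC that it reports at progestin-dependent CHD8 sites was not searched. The paper places most receptor sites in introns and intergenic regions, which these windows do not cover. A match is only a run of letters and not evidence of binding.

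MRPS5, the counterpart of bacterial S5, a protein at the path by which mRNA enters the small subunit, had the largest change in both cell states. Its log2 intensity was 7.53, 7.55 and 7.52 in siCHD8 R5020 against 6.85, 6.43 and 7.06 in siCHD8 EtOH, and 7.82, 7.82 and 7.93 in siCt R5020 against 6.78, 6.95 and 7.08 in siCt EtOH. No R5020 array overlapped an EtOH array in either. The log2 change was 0.75 ± 0.14 (SE) in siCHD8 (limma adjusted p = 0.002) and 0.92 ± 0.14 in siCt (adjusted p = 0.000307), which is 1.69-fold and 1.89-fold. The difference between these responses, siCHD8 minus siCt, was -0.17 with a 95% interval of -0.59 to 0.26 (adjusted p = 0.794).

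MRPS25, a small subunit protein without a bacterial counterpart, was nearly as regular. It was at 7.14, 7.17 and 7.03 in siCHD8 R5020 against 6.72, 6.53 and 6.48 in siCHD8 EtOH, and at 7.38, 7.22 and 7.16 in siCt R5020 against 6.54, 6.76 and 6.64 in siCt EtOH. The groups did not overlap in either state. The log2 change was 0.53 ± 0.11 in siCHD8 (limma adjusted p = 0.00423) and 0.61 ± 0.11 in siCt (adjusted p = 0.00135).

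MRPS23, also particular to mitochondria among small subunit proteins, was at 6.37, 6.38 and 6.43 in siCHD8 R5020 against 6.39, 5.79 and 5.97 in siCHD8 EtOH, where replicate 1 reached the level of the R5020 arrays. In siCt cells it was at 6.51, 6.54 and 6.59 with R5020 against 5.95, 6.02 and 5.82 with EtOH, without overlap. The log2 change was 0.62 ± 0.13 in siCt (limma adjusted p = 0.00478) and was not called in siCHD8 (0.35 ± 0.13, adjusted p = 0.119). Without siCHD8 EtOH replicate 1 the log2 change in siCHD8 was 0.52 ± 0.11 and was called (adjusted p = 0.00635). MRPS12, the counterpart of the bacterial decoding-site protein S12 and a dim probe set, was called in siCHD8 alone. It was at 5.02, 5.26 and 4.89 in siCHD8 R5020 against 4.73, 4.63 and 4.42 in siCHD8 EtOH, a change of 0.46 ± 0.14 (adjusted p = 0.048, a call held in 12 of 22 alternative settings with adjusted p from 0.034 to 0.215), and its change in siCt was 0.32 ± 0.14 (adjusted p = 0.152). The difference between the responses in siCHD8 and siCt did not pass the interaction test for MRPS23 or MRPS12 (limma adjusted p = 0.644 and 0.831).

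In the large subunit, MRPL4, whose bacterial counterpart L4 lines the tunnel through which the new protein leaves, was at 5.99, 6.04 and 6.16 in siCHD8 R5020 against 5.38, 5.59 and 5.31 in siCHD8 EtOH. In siCt cells it was at 6.20, 6.22 and 5.92 with R5020 against 5.79, 5.77 and 5.95 with EtOH, where replicate 3 of each treatment overlapped. The log2 change was 0.63 ± 0.12 in siCHD8 (limma adjusted p = 0.00191) and 0.28 ± 0.12 in siCt, which was not called (adjusted p = 0.138).

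MRPL14, the counterpart of bacterial L14 at the face that meets the small subunit, was at 7.46, 7.40 and 7.48 in siCHD8 R5020 against 7.22, 6.97 and 7.12 in siCHD8 EtOH. It was at 7.56, 7.66 and 7.47 in siCt R5020 against 7.16, 7.02 and 7.25 in siCt EtOH, so that no arrays overlapped in either state. The change of 0.34 ± 0.11 in siCHD8 missed the threshold (adjusted p = 0.0544, and 0.038 without siCHD8 EtOH replicate 1) and that of 0.42 ± 0.11 in siCt passed it (limma adjusted p = 0.0163).

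MRPL42, which has no bacterial counterpart, followed MRPS5 in the size of its change in siCt but spread widely between replicates. It was at 7.02, 6.96 and 7.08 in siCHD8 R5020 against 7.15, 6.70 and 7.09 in siCHD8 EtOH, and at 7.35, 7.13 and 7.78 in siCt R5020 against 6.93, 7.02 and 6.16 in siCt EtOH. The siCt EtOH array at 6.16 is replicate 3, and without it the change in siCt was 0.44 in place of 0.71 ± 0.21 (limma adjusted p = 0.0326 with all arrays, 0.0172 to 0.161 with each array left out in turn). In siCHD8 the change was 0.04 ± 0.21. MRPL15 and MRPL17, counterparts of bacterial L15 and L17, rose by 0.47 ± 0.14 (limma adjusted p = 0.04) and 0.37 ± 0.11 (adjusted p = 0.0366) in siCt. Each of these calls held in 11 of 23 alternative settings, with adjusted p up to 0.115 for MRPL15 and 0.134 for MRPL17. Their log2 differences in siCHD8 were 0.23 ± 0.14 and 0.22 ± 0.11, and neither was called there (adjusted p = 0.395 and 0.264). MRPL15 was at 7.68 on siCHD8 EtOH replicate 1 against 7.02 and 7.11 on the other 2 arrays of that condition, and without this array the difference in siCHD8 was 0.43 ± 0.10 for MRPL15, which was called (adjusted p = 0.0168), and 0.33 ± 0.10 for MRPL17, which was not (adjusted p = 0.0612).

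**Figure D3:**
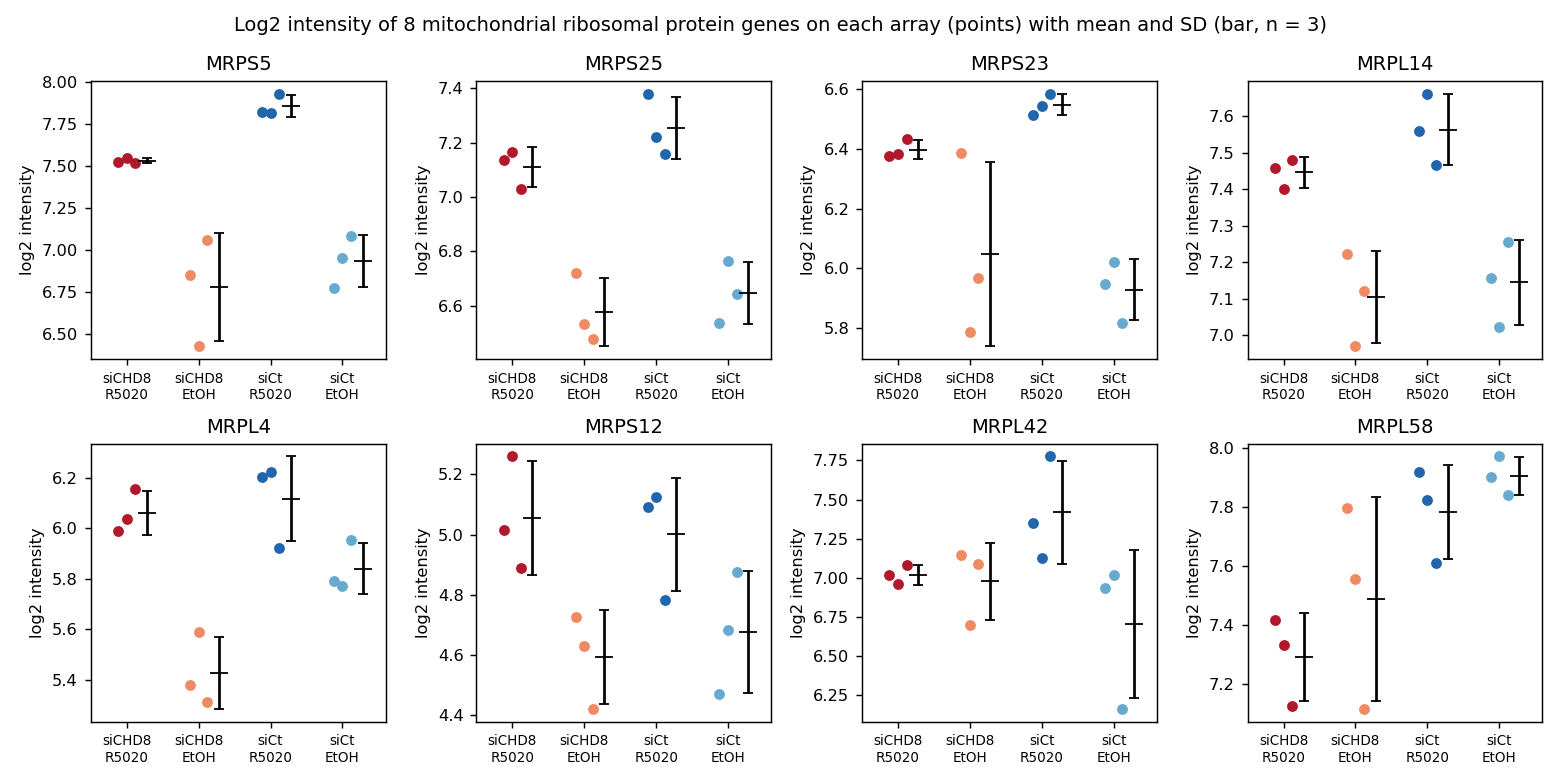
Log2 intensity of 8 genes on each array (points), with mean and SD (bars, n = 3), for siCHD8 R5020, siCHD8 EtOH, siCt R5020 and siCt EtOH. MRPS5 and MRPS25 with R5020 lie above EtOH without overlap in both cell states, MRPL42 in siCt EtOH holds 1 array at 6.16 below the rest, and MRPL58 lies lower in siCHD8 than in siCt with both treatments.

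Among changes in the other direction, MRPL48 of the large subunit, which has no bacterial counterpart, fell with R5020 in siCHD8. It was at 6.26, 6.34 and 6.41 in siCHD8 R5020 against 6.71, 6.63 and 6.65 in siCHD8 EtOH, a change of -0.33 ± 0.10 (limma adjusted p = 0.0403). In siCt it was at 6.70, 6.62 and 6.64 with R5020 against 6.59, 6.53 and 6.70 with EtOH, a change of 0.05 ± 0.10 (adjusted p = 0.79). The call in siCHD8 was near the threshold and held in 8 of 23 alternative settings, with adjusted p between 0.0114 and 0.162.

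The 2 members with the lowest p among those below 0 in siCt were MRPL52 and MRPL54, both dim and neither called. MRPL52 was at 4.28, 4.13 and 3.88 in siCt R5020 against 4.28, 4.37 and 4.75 in siCt EtOH (change -0.37 ± 0.14, adjusted p = 0.0873). MRPL54 was at 3.96, 4.08 and 3.35 in siCt R5020 against 4.11, 4.14 and 4.19 in siCt EtOH (change -0.35 ± 0.15, adjusted p = 0.147). The difference for MRPL54 rested mostly on siCt R5020 replicate 3, without which it was -0.13, and that for MRPL52 was -0.23 without siCt EtOH replicate 3.

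Averaged over siCHD8 and siCt cells, which uses all 12 arrays, 9 of the 73 genes (12.3%) rose with R5020 and 0 fell. Among all probe sets 10.4% were higher and 9.72% lower. Of the 63 members at 5 or more, 12.7% were higher and 0 lower, against 18.6% and 13.8% of all probe sets that bright. Of the 73, 3 had an unadjusted p under 0.05 among those below 0, against 16.8% of all probe sets. The largest were MRPS5 (0.84 ± 0.10, limma adjusted p = 1.5e-05), MRPS25 (0.57 ± 0.08, adjusted p = 6.02e-05), MRPS23 (0.48 ± 0.09, adjusted p = 0.00145), MRPL4 (0.46 ± 0.08, adjusted p = 0.00089), MRPS12 (0.39 ± 0.10, adjusted p = 0.0108) and MRPL49 (0.38 ± 0.11, adjusted p = 0.0179). MRPL14, MRPL15 and MRPL17 were the others. MRPL49, a large subunit protein without a bacterial counterpart, was at 7.89, 8.26 and 7.96 in siCHD8 R5020 against 7.70, 7.58 and 7.39 in siCHD8 EtOH. In siCt it was at 8.04, 7.92 and 7.89 with R5020 against 7.66, 7.98 and 7.36 with EtOH, where the groups overlapped. It had not been called in either cell state alone. Its averaged change was 0.31 without siCt EtOH replicate 3, and the limma adjusted p reached 0.0548 with 1 array left out. The lowest p below 0 belonged to MRPL45, which helps to anchor the ribosome to the inner membrane (-0.21 ± 0.08, adjusted p = 0.0657), and MRPL54 (-0.28 ± 0.11, adjusted p = 0.0821). MRPL45 stayed on that side of the threshold in 18 of 22 alternatives.

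The called genes were spread over the ribosome. Averaged over both cell states, 4 of 23 small subunit genes and 5 of 50 large subunit genes rose, with medians of 0.08 and 0.03 over all members of each. Of the genes listed with a bacterial counterpart 6 of 43 rose (median 0.07), and of those listed without one 3 of 30 (median 0.01). In the same average 10.4% of all probe sets and 18.6% of those at 5 or more rose. None of the 5 genes of the stalk, the mobile arm that binds translation factors, was called. Of these 5, 4 lay below 0, against 59.8% of all probe sets and 49.7% of those at 5 or more. Of the 7 genes around the exit of the tunnel only MRPL17 rose. No test was made between these groups.

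**Figure D4:**
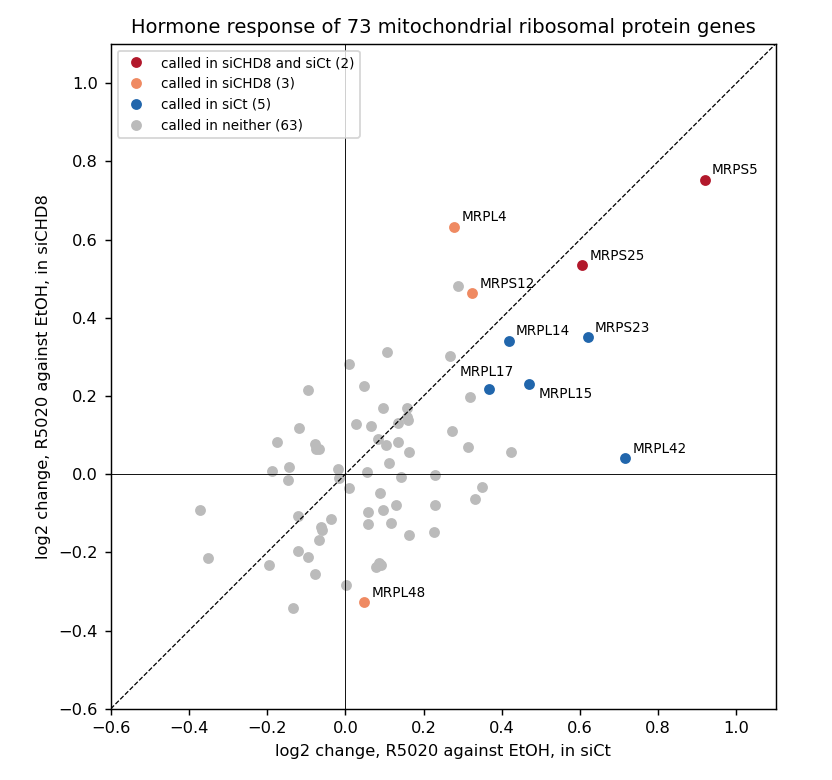
Log2 change with R5020 against EtOH in siCt (horizontal) and in siCHD8 (vertical) for the 73 genes, 1 point per gene, coloured by the call at an adjusted p under 0.05 and with the line of equal change dashed. MRPS5 and MRPS25 were called in both cell states, and MRPL42 lies at 0.71 in siCt and 0.04 in siCHD8.

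Over all 73 genes the median log2 change with R5020 was 0.02 in siCHD8 and 0.09 in siCt, against -0.02 and -0.05 over all probe sets tested and -0.01 and 0.03 over those at 5 or more. The sign of these medians is not settled, because a second quantile normalization of the arrays gave -0.00181 in siCHD8 and -0.000113 in siCt, and median centring 0.04 in siCHD8 and 0.15 in siCt. In siCHD8, 14 genes (19.2%) had all R5020 arrays above all EtOH arrays, against 13.0% of all probe sets and 21.6% of those at 5 or more, and 6 (8.22%) had all below, against 14.2% and 20.3%. In siCt, 20 genes had all R5020 arrays above all EtOH arrays, or 27.4% against 15.3% of all probe sets and 26.2% of those at 5 or more, and 5 had all below, or 6.85% against 18.7% and 20.2%. With median centring these counts in siCt were 28 above (38.4%, against 31.8% of probe sets at 5 or more) and 1 below (1.37%, against 15.5%), and with the second quantile normalization 13 above (17.8%, against 20.9%) and 5 below (6.85%, against 26.6%). The share above thus lay over or under that of probe sets of like brightness depending on the scaling. The 2 responses use separate arrays, and 45 genes (61.6%) had the same sign in both, against 64.2% of all probe sets.

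No gene was called for a difference between the hormone response in siCHD8 and that in siCt, among the 73 or among all 21214 probe sets (0%) by limma; 2 of the 73 had an unadjusted p under 0.05 above 0 and 3 below, against 4.89% and 4.67% of all probe sets. The lowest p belonged to MRPL48 (-0.37, 95% interval -0.67 to -0.08, adjusted p = 0.496) and MRPS14, the counterpart of bacterial S14 (-0.37, -0.70 to -0.04, adjusted p = 0.506), below 0, and to MRPL4 (0.36, 0.00 to 0.71, adjusted p = 0.523) and MRPL41 (0.31, 0.00 to 0.62, adjusted p = 0.523) above 0. MRPS14 was at 7.43, 7.39 and 7.37 in siCHD8 R5020 against 7.67, 7.40 and 7.56 in siCHD8 EtOH, and at 7.60, 7.60 and 7.71 in siCt R5020 against 7.51, 7.48 and 7.24 in siCt EtOH. MRPL41, without a bacterial counterpart, was at 8.20, 8.07 and 8.21 in siCHD8 R5020 against 7.95, 8.05 and 7.85 in siCHD8 EtOH, and at 7.96, 8.11 and 7.95 in siCt R5020 against 8.08, 8.04 and 8.18 in siCt EtOH. Such intervals are wide. The median standard error of a member was 0.18 for a difference between responses, 0.13 for 3 arrays against 3 and 0.09 for a mean over all 12 arrays.

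Genes around the mitochondrial ribosome were described from lists of the same pathway. Of 4 ribosomal proteins with other kinds of symbol (DAP3, PTCD3, CHCHD1 and GADD45GIP1), DAP3, a small subunit protein that binds GTP, rose by 0.44 ± 0.12 in siCHD8 (limma adjusted p = 0.03) and by 0.38 ± 0.12 in siCt (adjusted p = 0.0486). The other 3 were not called in any comparison. Averaged over both cell states, 5 of 23 assembly factors rose and 1 fell, against 10.4% and 9.72% of all probe sets. NOA1, a GTPase of small subunit assembly, rose by 0.39 ± 0.07 (adjusted p = 0.00139), NSUN4, a methyltransferase of ribosomal RNA, by 0.39 ± 0.09 (adjusted p = 0.00588) and GTPBP10, a GTPase of large subunit assembly, by 0.47 ± 0.13 (adjusted p = 0.0146). YBEY, an endoribonuclease, fell by 0.32 ± 0.09 (adjusted p = 0.0203).

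Of 15 translation factors of mitochondria 0 rose and 1 fell, the release factor MTRF1 (-0.28 ± 0.08, limma adjusted p = 0.0299). Of 19 mitochondrial aminoacyl-tRNA synthetases, which charge tRNAs for this ribosome, NARS2 rose (0.37 ± 0.12, adjusted p = 0.0449) and WARS2 (-0.33 ± 0.10, adjusted p = 0.0329) and TARS2 (-0.27 ± 0.09, adjusted p = 0.0479) fell. Of 11 genes that copy or transcribe mitochondrial DNA, TFB2M, which starts transcription with the mitochondrial RNA polymerase, rose by 0.48 ± 0.08 (adjusted p = 0.000363) and TWNK, the helicase, by 0.36 ± 0.10 (adjusted p = 0.0164).

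Among 9 nuclear regulators known to act on mitochondrial genes, GABPB1, which pairs with the DNA-binding GABPA, rose by 0.57 ± 0.11 (limma adjusted p = 0.00173) and MYC by 0.39 ± 0.08 (adjusted p = 0.0014) as means of both cell states. PPARGC1A, the coactivator PGC-1α, fell by 0.70 ± 0.15 (adjusted p = 0.00284) and YY1 by 0.22 ± 0.07 (adjusted p = 0.0419). For comparison, in the same average 1 of 62 cytosolic ribosomal protein genes and 3 of 69 respiratory chain subunit genes rose and 0 of either fell, whereas 22 of 39 nucleolar ribosome biogenesis genes rose and 0 fell. Their medians were 0.01, 0.02 and 0.30, against 0.04 for the 73 mitochondrial ribosomal protein genes.

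With knockdown of CHD8, single genes seldom passed the test, but the mitochondrial ribosomal protein genes lay slightly lower in siCHD8 than in siCt. With R5020, 0 of the 73 were called higher or lower by limma, against 0.0330% and 0.156% of all probe sets, and with EtOH 0 were, against 0.113% and 0.179%. With R5020, 12 of the 73 had an unadjusted p under 0.05 below 0 and 0 above, against 7.67% and 6.24% of all probe sets. With EtOH, 7 were below 0 and 2 above, against 6.98% and 5.16%. These unadjusted shares were not counted for probe sets at 5 or more, where most members lie. With R5020, 62.7% of probe sets that bright lay below 0, against 47.8% of all, so the comparison with all probe sets is not matched for brightness. Averaged over both treatments, 1 gene fell, MRPL58, against 1.39% of all probe sets, and 0 rose, against 0.372%.

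MRPL58, also called ICT1, is a large subunit protein that can release the chain from stalled ribosomes. It was at 7.42, 7.33 and 7.13 in siCHD8 R5020 against 7.92, 7.82 and 7.61 in siCt R5020, and at 7.80, 7.55 and 7.11 in siCHD8 EtOH against 7.90, 7.97 and 7.84 in siCt EtOH. All siCHD8 arrays lay below all siCt arrays of the same treatment. The mean change was -0.45 ± 0.11 (limma adjusted p = 0.0472), and the call held in 9 of 22 alternatives, with adjusted p from 0.014 to 0.135. With each array left out in turn the change stayed between -0.53 and -0.36. The call was lost without any 1 of 11 of the 12 arrays. Without the remaining one, siCHD8 EtOH replicate 1, it was kept (adjusted p = 0.0141), and MRPL1, MRPL18 and MRPS17 were called lower as well. The share of all probe sets called without this array was not counted.

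The 2 members nearest to a call in the other direction were MRPL36 and MRPL54. MRPL36, the counterpart of bacterial L36, was at 8.61, 8.63 and 8.75 in siCHD8 R5020 against 8.37, 8.48 and 8.55 in siCt R5020, and at 8.66, 8.99 and 8.76 in siCHD8 EtOH against 8.70, 8.34 and 8.53 in siCt EtOH. Its mean change was 0.24 ± 0.09 (limma adjusted p = 0.183). MRPL54 was at 4.07, 4.07 and 4.06 in siCHD8 R5020 against 3.96, 4.08 and 3.35 in siCt R5020, and at 4.28, 4.15 and 4.41 in siCHD8 EtOH against 4.11, 4.14 and 4.19 in siCt EtOH, a mean change of 0.20 ± 0.11 (adjusted p = 0.397). MRPL36 did not overlap between siCHD8 and siCt with R5020 and did with EtOH.

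With R5020 the lowest p below 0 belonged to MRPS31 and MRPL48. MRPS31, a dim small subunit gene without a bacterial counterpart, was at 4.79, 4.59 and 4.49 in siCHD8 R5020 against 5.20, 5.02 and 5.14 in siCt R5020 (-0.50 ± 0.14, limma adjusted p = 0.15). MRPL48, whose values stand above, had a difference of -0.32 ± 0.10 (adjusted p = 0.172). With EtOH it belonged to MRPL52, at 3.99, 3.85 and 3.99 in siCHD8 against 4.28, 4.37 and 4.75 in siCt (-0.53 ± 0.14, adjusted p = 0.127), and MRPL4 (-0.41 ± 0.12, adjusted p = 0.155). Above 0 it belonged to MRPL36 (0.28 ± 0.12, adjusted p = 0.367) and MRPS10 (0.34 ± 0.16, adjusted p = 0.4, and 0.18 without siCHD8 EtOH replicate 1) with EtOH, and to MRPL54 (0.27 ± 0.15, adjusted p = 0.448) and MRPL36 (0.20 ± 0.12, adjusted p = 0.488) with R5020. None of these passed.

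The shift of the group was seen in counts of direction. Averaged over both treatments, 63 of the 73 genes (86.3%) lay lower in siCHD8, against 47.7% of all probe sets and 59.8% of those at 5 or more. The median log2 change was -0.10, against 0.01 and -0.04. With R5020 the median was -0.13 and 60 of 73 genes lay lower, against 47.8% of all probe sets and 62.7% of those at 5 or more. Of the 73, 31 genes (42.5%) had all siCHD8 arrays below all siCt arrays, against 15.3% of all probe sets and 26.7% of those at 5 or more, while 1 (MRPL36) had all above, against 12.3% of all. With EtOH the median was -0.07, 50 of 73 lay lower, against 51.2% of all probe sets and 54.4% of those at 5 or more, and 8 genes (11.0%) were fully below, against 8.06% and 12.1%.

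Scaling altered the size of this shift and kept its sign. With R5020, 35 genes (47.9%) were fully below after median centring, against 16.6% of all probe sets and 29.0% of those at 5 or more, and 1 was fully above. After a second quantile normalization 20 (27.4%) were fully below, against 13.0% and 17.7%, and 5 (6.85%) fully above, against 12.9% and 18.5%. The median was -0.14 with median centring and -0.07 with the quantile normalization. The size of the shift with EtOH depended on single arrays. Its median was -0.07 with all arrays, larger at -0.14 without siCHD8 EtOH replicate 1 and smaller at -0.02 without siCHD8 EtOH replicate 3. Of the 73 genes, 4 (5.48%) were fully lower in siCHD8 with both treatments, against 2.57% of all probe sets. This share was not counted for probe sets at 5 or more, which were fully lower more often than all probe sets with each treatment. The 2 knockdown comparisons use separate arrays, and 42 of the 73 genes (57.5%) lay below 0 in both, against 26.3% of all probe sets and 36.8% of those at 5 or more. Since most members lay below 0 in each comparison, many would do so in both without agreement gene by gene. Across the members the 2 knockdown changes correlated at 0.24, and across probe sets at 5 or more also at 0.24.

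**Figure D5:**
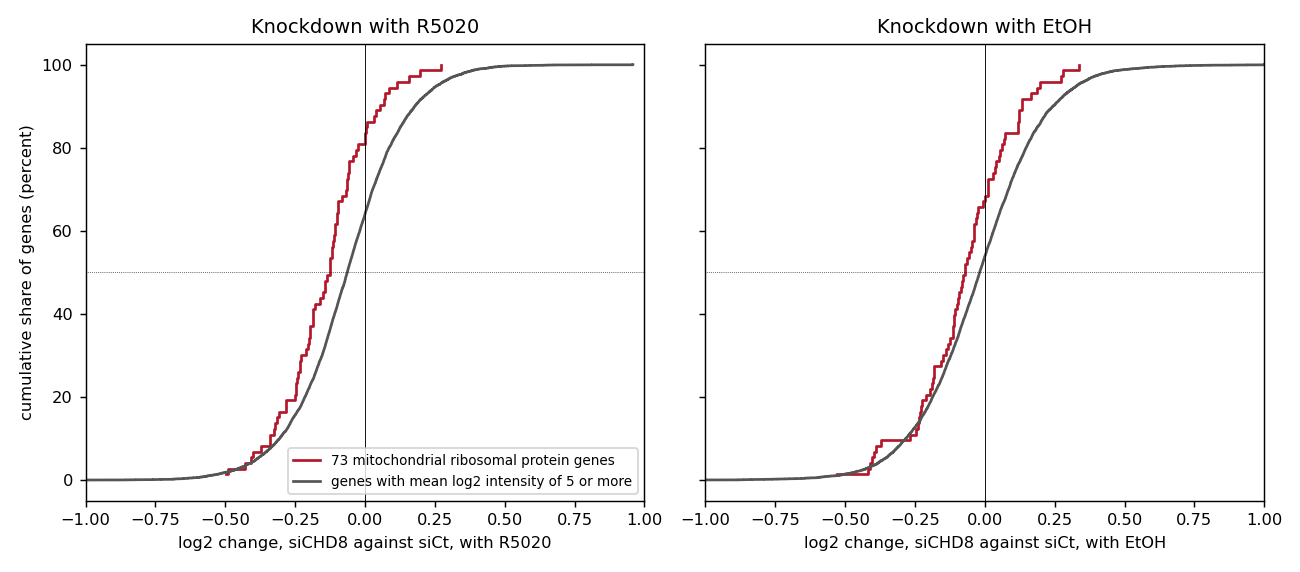
Cumulative share of genes (percent, vertical) by log2 change of siCHD8 against siCt (horizontal), with R5020 on the left and with EtOH on the right. Red shows the 73 genes, and grey shows genes at 5 or more, each by its brightest probe set. The red curve lies left of the grey curve over most of its range. The 73 genes had medians of -0.13 with R5020 and -0.07 with EtOH, against -0.06 and -0.02 over all probe sets at 5 or more.

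Other lists were lower in siCHD8 too, so the shift was not tested as particular to these genes. Averaged over both treatments, 53 of 62 cytosolic ribosomal protein genes (median -0.16), 49 of 69 respiratory chain genes (median -0.07) and 35 of 39 nucleolar biogenesis genes (median -0.10) lay below 0. Of these 2, 0 and 0 were called lower. Of the pathway lists, LARS2, the mitochondrial leucyl-tRNA synthetase, fell by 0.57 ± 0.11 (limma adjusted p = 0.0208), MYC fell by 0.35 ± 0.08 (adjusted p = 0.029) and YY1 rose by 0.32 ± 0.07 (adjusted p = 0.036). No assembly factor or translation factor was called.

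The promoters of 66 of the 73 genes were in the RefSeq table, and 6 motifs were sought in the 250 bases before the start, on both strands. CCGGAAG, the GABPA and ETS motif, was in 22 of 66 windows (33.3%), against 12.1% of 14240 tested genes and 17.7% of those at 5 or more. TGCGCA, the core of the NRF1 motif and its own reverse complement, was in 12 (18.2%), against 9.25% and 12.4%. AAGATGGC (reverse complement GCCATCTT), the motif of YY1, was in 5 (7.58%; MRPS12, MRPL32, MRPL36, MRPL47 and MRPL52), against 1.45% and 2.14%.

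GGGCGG was in 53% of the windows of the members, against 57.5% of all tested genes and 70.8% of those at 5 or more. The E-box CACGTG was in 9.09%, against 7.86% and 9.62%, and TGTTCT in 7.58%, against 9.08% and 6.8%. Among the genes that rose with R5020 averaged over both cell states, 8 had a window, of which 1 held the ETS motif (MRPS23), 1 the NRF1 core (MRPL17), 1 the YY1 motif (MRPS12), 1 the E-box (MRPL49), 5 GGGCGG and 0 TGTTCT. None of the 6 motifs contains another, and the median GC share was 59.8% for the members, 62.8% for all tested genes and 66% for those at 5 or more.

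Many of these genes start back to back with another gene. A start on the opposite strand within 1000 bases was found for 20 of 66 genes (30.3%), against 19% of all tested genes and 25.5% of those at 5 or more, and the neighbour was measured for 16. MRPL46 and MRPS11 are neighbours of each other, 320 bases apart, and neither was called (0.07 and -0.10 averaged over both cell states). MRPS12 rose (0.39), while SARS2, the mitochondrial seryl-tRNA synthetase that starts 181 bases away, did not pass the test (-0.15, limma adjusted p = 0.236). MRPL49 rose (0.38), and FAU, a cytosolic ribosomal protein gene 49 bases away, did not pass (0.22, adjusted p = 0.126). With R5020, averaged over both cell states, 2 of the 16 neighbours were called higher and 2 lower, against 10.4% and 9.72% of all probe sets. The 16 count MRPL46 and MRPS11 each as the neighbour of the other. In 0 pairs were both genes called in the same direction. Of the members with a measured neighbour only MRPS12 and MRPL49 were called, so few pairs could have shown this.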

How the data were processed

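The authors isolated total RNA, labelled it with biotin, hybridised it to Affymetrix Human Gene ST arrays and deposited RMA values, that is background-corrected, quantile-normalized log2 intensities per probe set. The version run, the definition of probe sets and any filtering of them were not given in the sources used here. RMA leaves no record of signal over background, so dim probe sets were taken as those with a mean under 5. All 12 value columns of the deposited table were used, and 0 were left out. Of 33297 probe sets, 21214 with a gene symbol were tested, 19461 of them with 1 symbol and 1753 with several; 12083 had none.

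Conditions came from the sample titles. After a test on simulated data, limma 3.58.1 (R 4.3.3) was used to fit a mean for each condition to all 12 arrays (lmFit, contrasts, eBayes), and p-values were adjusted by Benjamini-Hochberg over all probe sets with a symbol. The contrasts were R5020 against EtOH in siCHD8, in siCt and on average, their difference, and siCHD8 against siCt with R5020, with EtOH and on average. Counts over members are descriptions beside the same counts over all probe sets, and no set test was made. The members and lists were chosen with earlier results of these data known. Genes named with values are the members called with the largest changes (up to 10 each way for R5020 in siCt and up to 6 elsewhere), the 2 with the lowest p where none was called, up to 3 called genes of the other lists, and the array that decided a value. MRPL20 and MRPS18B had several probe sets with the same values, and MRPL36 had 2 that differed.

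Promoters and names came from RefSeq (GRCh38.p14), to which all 73 members matched by Entrez ID; 7 had no promoter entry. Alternatives were median centring, a second quantile normalization, no dim probe sets, probe sets without a symbol added, only the brightest probe set of each gene, the mean of a member's probe sets, array weights, a robust variance with a trend, a fit on only the conditions compared, the replicate block, a lower limit on adjusted p with or without a fold limit, and the omission of each array in turn or of siCHD8 EtOH replicate 1 with siCt EtOH replicate 3. Figures used Python 3.11.15, pandas 2.3.3 and matplotlib 3.10.9.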

Additional observations from a re-analysis of the deposited data

How the results depend on the processing

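For R5020 in siCt, 4 genes were called higher with a second quantile normalization and 4 with all probe sets, 3 at an adjusted p under 0.01 with or without a fold over 1.5, and 3 to 7 with 1 array left out; the median was 0.15 with median centring and -0.000113 with the quantile normalization. For R5020 in siCHD8, 10 genes were higher with array weights, 11 without both siCHD8 EtOH replicate 1 and siCt EtOH replicate 3, 2 with a fold over 1.5 required beside an adjusted p under 0.01, and 3 to 8 with 1 array left out. The gene called lower there (MRPL48) was lost, leaving 0, with median centring, all probe sets, the compared conditions alone, those 2 arrays left out, both stricter thresholds and the replicate block, and the count was 0 to 1 with 1 array left out. The median in siCHD8 was 0.0826 without the 2 arrays and -0.0143 to 0.0826 with 1 left out. Averaged over both cell states, 2 genes were lower with the quantile normalization, 1 with dim probe sets left out, 1 with a trended and robust variance and 0 to 1 with 1 array left out, and 5 were higher at an adjusted p under 0.01 and 1 with a fold over 1.5 as well.

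For siCHD8 against siCt with R5020, 5 genes were lower with array weights and 1 without the 2 arrays. With EtOH the median lay between -0.14 and -0.0211 with 1 array left out. On average, 0 were lower with median centring, all probe sets and both stricter thresholds, 3 with dim probe sets left out, 3 with array weights, 2 without the 2 arrays and 0 to 4 with 1 array left out. The causes were not tested. The share of all probe sets called was not counted for the alternative fits, so these counts of members stand without that comparison. Of all values recomputed, 0 of those for named genes changed direction; 74 lost their call and 8 gained one. Same-numbered arrays of different conditions did not deviate together (18 pairs, correlation -0.25 to 0.20, 4 over 0.1). This cannot show how samples were collected, and the labels do not say whether equal numbers pair samples, so pairing is not known. With the replicate block, 5 genes in place of 7 were higher in siCt, 4 in siCHD8 and 9 on average, and MRPL58 stayed lower. With 3 arrays per condition, changes of small size are beyond reach.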

Other observations

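Of the genes kept out because their probe sets carried a second symbol, MRPS28 with TPD52 had a log2 difference between siCHD8 and siCt of -0.66 ± 0.15 with R5020 (limma adjusted p = 0.0912) and of -0.12 ± 0.15 with EtOH, neither of them called, and between R5020 and EtOH of -0.14 ± 0.15 in siCHD8 and 0.40 ± 0.15 in siCt (adjusted p = 0.698 and 0.0994). This probe set cannot tell the small subunit gene from TPD52. MRPL51 with SPTLC1, MRPS6 with SLC5A3 and MRPS24 with URGCP-MRPS24 had log2 differences between -0.21 and 0.16 in all single-condition comparisons, and none was called.

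The probe set of MRPL36 that was not used, at a mean of 8.11, gave a change with R5020 of -0.40 ± 0.15 in siCHD8 (limma adjusted p = 0.114) and -0.07 ± 0.15 in siCt, against -0.14 ± 0.12 and -0.06 ± 0.12 for the one used. Averaged over both treatments it differed between siCHD8 and siCt by 0.01 ± 0.11, against 0.24 ± 0.09, so the higher level of MRPL36 in siCHD8 was not shared by both of its probe sets.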
